A study of Mus musculus with 12 samples.

Results

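The 10 genes described here are the effector ligands Ifng, Tnf, Fasl and Tnfsf10 and the receptors Ifngr1, Ifngr2, Tnfrsf1a, Tnfrsf1b, Fas and Tnfrsf10b through which they act. They were taken by name, 4 ligands and 6 receptors, and all 10 were found among the 19369 genes of the Total libraries and the 18574 genes of the CD45 libraries. The study asked how the epithelial or mesenchymal state of a breast tumour goes with its immune cells and their cytotoxic function. It used 4T1, a mouse triple-negative mammary carcinoma line, and clones that each grew from a single 4T1 cell, described by the submitters as ranging from epithelial through intermediate to mesenchymal. The 6 tumours came from Clone E, Clone EM1, Clone EM2, Clone EM3, Clone M and the uncloned Parental 4T1 cells, all in the mammary fat pad of female BALB/c mice 9 to 11 weeks old. Each tumour gave a Total library of all its cells and a CD45 library of leukocytes held on magnetic beads, 12 single-cell RNA libraries in all. With 1 tumour per group, and each clone a single line, no test between tumours was possible. Differences between tumours are therefore given as values with counting intervals.

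Interferon gamma, the product of Ifng, is made mainly by activated T cells and NK cells and binds a receptor of IFNGR1, which binds the ligand, and IFNGR2, which is needed for the receptor to signal. TNF, made by macrophages, granulocytes and T cells, acts through TNFR1 (Tnfrsf1a), which has a death domain and is found on most cells, and TNFR2 (Tnfrsf1b), which has none and is best known on leukocytes. FAS ligand (Fasl) and TRAIL (Tnfsf10) are membrane proteins that kill by clustering the death receptors FAS and, in the mouse, the single TRAIL death receptor encoded by Tnfrsf10b. In tumours these 4 ligands are part of how T and NK cells act on malignant cells besides releasing perforin and granzymes.

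Levels are given as CPM, the UMIs (unique molecular identifiers, which count captured RNA molecules) of a gene per 1000000 UMIs of a cell class, summed over the cells of that class in a library. Intervals are exact Poisson 95% intervals and cover counting error only. They take no account of differences between cells and are too narrow where a few cells hold most UMIs of a gene. CPM is not corrected for gene length or capture, so levels of different genes are not compared with each other. The libraries held 6709 to 13467 cells and 28083101 to 122055131 UMIs, and 113012 of 115612 cells were kept after 2600 likely doublets had been set aside. Cell classes were those the authors deposited, and because they were assigned from the same RNA, a test between classes describes these classes. The classes carried their markers: summed levels of 8 T cell genes were 2222 to 4501 CPM in the T/NK class of the Total libraries and 10.2 to 75.8 CPM in tumour cells. In the CD45 libraries, 4 NK genes summed to 888 to 2175 CPM in NK cells and 21.6 to 189 CPM in T cells. The 7 genes of the tumour cell list summed to 2129 to 11755 CPM in tumour cells. Barcodes were shared by 84 to 189 cells between 12 pairs of libraries. The first 16 bases of the barcode were shared by 12.2% to 19.1% of cells, counted in the smaller library, in 14 pairs: all pairs within E and EM3, all pairs within EM1 and EM2, and the library pairs of M and of Parental. In the other 52 pairs this share was 0.686% to 1.91%.

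Ifng RNA was highest per RNA in T and NK cells. These held 55.0% to 93.4% of the Ifng UMIs of a CD45 library and 11.8% to 94.4% of those of a Total library. The low end was Parental, where tumour cells, 55.4% of the cells, held 30 of 51 Ifng UMIs at 0.362 CPM and T and NK cells 6. The class the authors named T/Myeloid Hybrid, 1.17% of the cells of the EM3 CD45 library, held 97 of its 256 Ifng UMIs, 80 of them in 1 cell. In the joined T and NK cells of the CD45 libraries Ifng stood at 76.2 CPM in the E tumour, 103 CPM in EM1, 25.9 CPM in EM2, 39.5 CPM in EM3, 68.6 CPM in M and 11.2 CPM in Parental. EM1 was highest and Parental lowest, with only 11 UMIs in 841 Parental cells. The T/NK class of the Total libraries gave 59.2 CPM in E, 41.1 CPM in EM1, 52.0 CPM in EM2, 72.3 CPM in EM3, 18.4 CPM in M and 5.66 CPM in Parental. Parental was lowest in both library types, whereas EM3 was highest in the Total libraries and EM1 and M stood much lower there than in the CD45 libraries. Macrophages of the same libraries had 0.124 to 0.503 CPM, and tumour cells of the Total libraries 0.121 to 0.756 CPM. The ranges of T and NK cells and macrophages did not overlap, and the difference was 6.76 on the log2 scale (SE 0.383, adjusted p = 1.65e-07, higher in 6 of 6 tumours). This and all other adjusted p-values come from edgeR's quasi-likelihood test on class sums, with the tumour as a block and Benjamini-Hochberg adjustment over all genes tested. In that comparison 7 of the 10 genes were called higher in T and NK cells and 3 lower, against 39% and 39.8% of all 11164 genes tested. Scaling by summed UMIs in place of TMM factors (which align the bulk of genes between classes) moved the median of all genes by 0.57 and the share of calls that were higher from 49.5% to 70.7%. It changed the side of none of the 10 genes there. The call of Tnfrsf1b (0.23, adjusted p = 0.0354) was lost with no filter on low counts (adjusted p = 0.185) and without the E, EM2, EM3 or M library (adjusted p = 0.0949, 0.0561, 0.112 and 0.0707).

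The Ifng sums of the T and NK cells rested on very few cells. In EM1, 1 Cd44+ Cd4+ T cell held 145 of the 411 Ifng UMIs, which was 7.89% of all RNA molecules counted in that cell. The cell with most Ifng held 54 of 294 UMIs for E, 12 of 62 for EM2, 13 of 143 for EM3, 37 of 81 for M and 3 of 11 for Parental. Without that cell, T and NK cells had 62.2 CPM in E, 66.8 CPM in EM1, 20.8 CPM in EM2, 35.9 CPM in EM3, 37.3 CPM in M and 8.13 CPM in Parental. The EM1 and M values fell most, and Parental was still lowest. NK cells showed the same on a smaller base of 38 to 132 cells. Their Ifng level was 322 CPM in E, 558 CPM in EM1, 131 CPM in EM2, 7.38 CPM in EM3, 41.3 CPM in M and 51.5 CPM in Parental. In the E and EM1 tumours 54 of 56 and 81 of 86 Ifng UMIs of NK cells sat in 1 cell, and without it the levels were 11.5 and 32.5 CPM.

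Among T cells, the Gzmb+ Cd8+ cells, named after the cytotoxic protease granzyme B, carried Ifng most evenly between tumours. Their level was 90.9 CPM in E, 87.5 CPM in EM1, 72.7 CPM in EM2, 99.2 CPM in EM3 and 113.8 CPM in M. The 5 values lay close together, with intervals that all overlapped, while Parental had 8 such cells and was left out of tests on them. Without the cell with most UMIs they were 86.2, 82.0, 66.3, 82.4 and 56.9 CPM in the same order, and the M value, on 12 UMIs of which 6 sat in 1 cell, fell most. At least 1 Ifng UMI was found in 7.94% to 14.8% of the Gzmb+ Cd8+ cells, against 0% to 0.14% of B cells, which should lack the gene. Median depths were 1134 to 2211 UMIs a cell in the former and 888 to 1501 in the latter. After thinning each cell to 1000 UMIs, with 369 shallower Gzmb+ Cd8+ cells and 857 shallower B cells left out, the median over tumours was 7.69% and 0%. Gzmb+ Cd8+ cells had more Ifng than Lef1+ Cd8+ cells (Lef1 marks naive and stem-like T cells) by 1.44 on the log2 scale (SE 0.323, adjusted p = 0.00448, higher in 5 of 5 tumours). Without the EM3 library the difference was 0.98 (adjusted p = 0.072). Of the 10 genes, 2 were called higher in Gzmb+ than in Lef1+ cells and 1 lower, of 6 tested, against 6.99% and 9.48% of 6311 genes.

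Cd44+ Cd4+ T cells, antigen-experienced helper cells by that marker, had more scattered Ifng levels. These were 147 CPM in E, 394 CPM in EM1, 15.8 CPM in EM2, 35.5 CPM in EM3, 94.7 CPM in M and 30.6 CPM in Parental. Without the cell with most UMIs they were 52.6, 85.3, 9.46, 31.1, 9.24 and 7.65 CPM in the same order. The 2 readings of the same sums gave different answers: Cd44+ Cd4+ cells over Gzmb+ Cd8+ cells was 0.53 on the log2 scale (SE 0.406, adjusted p = 0.374) with all cells, and −0.80 (adjusted p = 0.0388) without the top cell of each sum. Against NK cells, Ifng was lower in Gzmb+ Cd8+ cells by 1.34 on the log2 scale in the fit (a log2 difference of −1.34, SE 0.426, adjusted p = 0.0297). The level was nevertheless higher in Gzmb+ cells in 2 of 5 tumours, DESeq2 gave −0.39 (adjusted p = 0.885), edgeR lost the call without the tumour block (adjusted p = 0.0551) and without the E, EM1 or EM2 library (adjusted p = 0.212, 0.44 and 0.054), and without the top cells too few UMIs remained for the gene to be tested. In this comparison 1 of the 10 genes was called higher in Gzmb+ cells and 3 lower, of 6 tested, against 10.2% and 12.9% of 4229 genes.

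**Figure D1:**
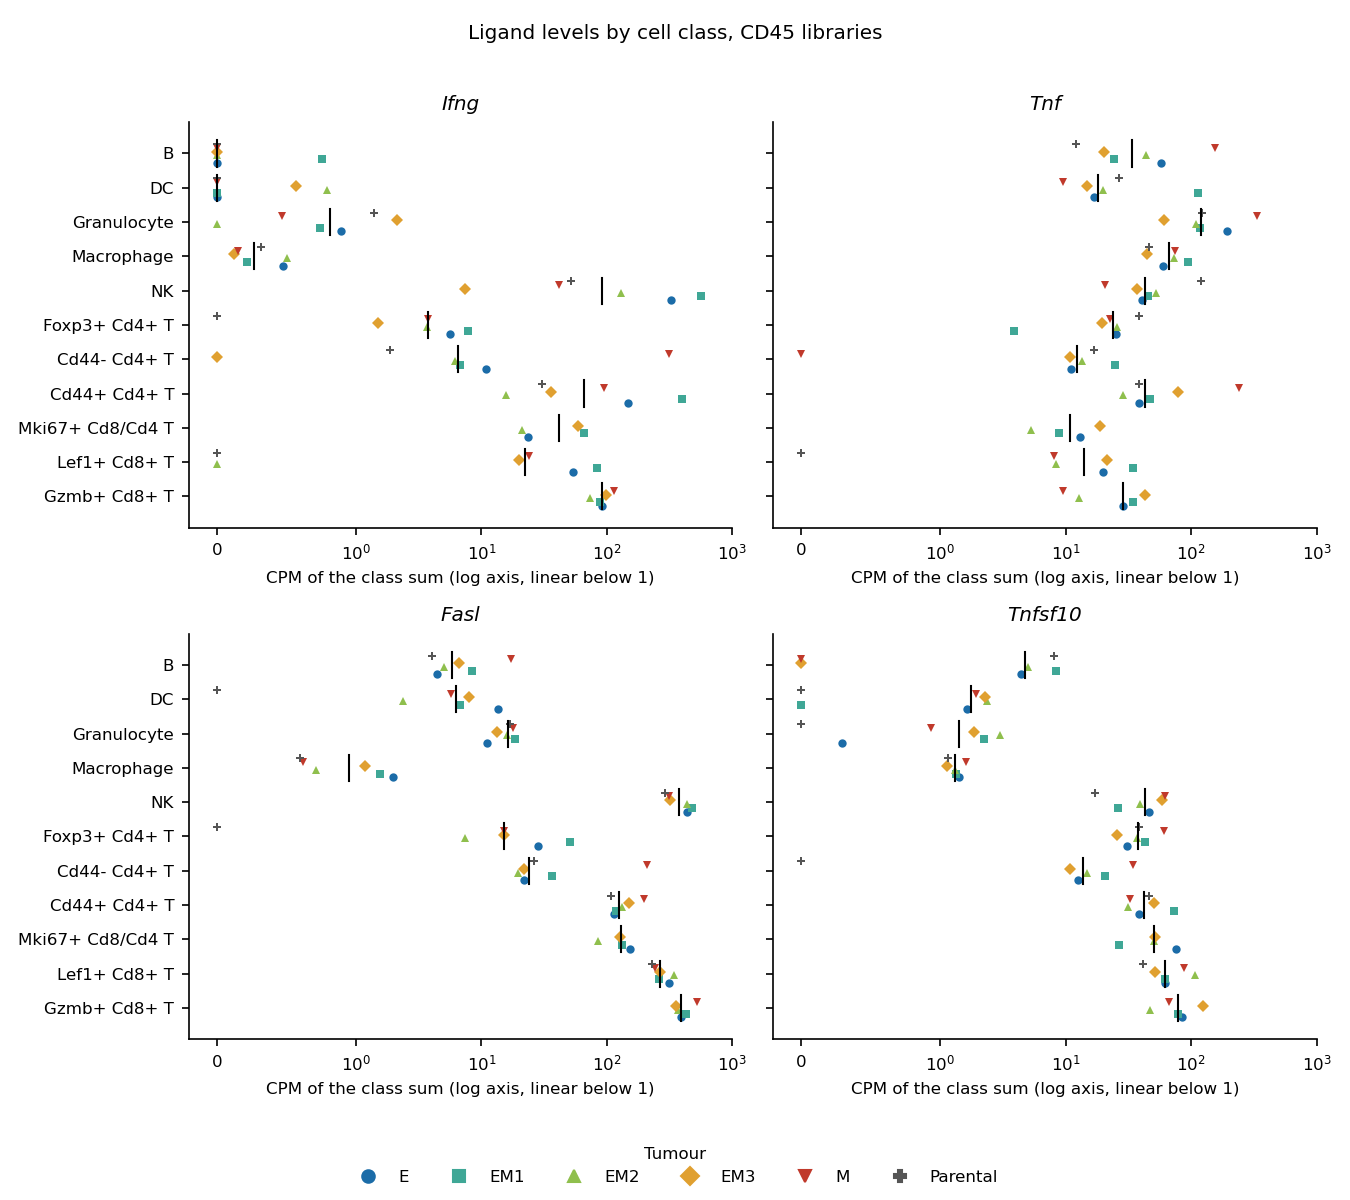
Level in CPM (log axis) of each of the 4 ligands in the cell classes of the CD45 libraries, with 1 point per tumour and a bar at the median. Ifng, Fasl and Tnfsf10 points are high in T and NK classes and Tnf points in granulocytes, where they reach 337 CPM in the M tumour.

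The RefSeq promoters of the 4 ligands are shown because the ligands differ in which cells hold their RNA. Each is the 250 bases before the annotated start on the GRCm38.p6 build, 5′ to 3′ on the strand of the gene, with capitals marking 2 motifs on either strand. The first is GGAAA, which reads TTTCC on the other strand, the core bound by NFAT and related factors in T cell activation. The other is the TATA box, searched as TATAAA. The windows lie at chr10:118440796-118441045 on the plus strand, chr17:35202008-35202257 on the minus strand, chr1:161788496-161788745 on the minus strand and chr3:27316827-27317076 on the plus strand, in the order below.
Ifng: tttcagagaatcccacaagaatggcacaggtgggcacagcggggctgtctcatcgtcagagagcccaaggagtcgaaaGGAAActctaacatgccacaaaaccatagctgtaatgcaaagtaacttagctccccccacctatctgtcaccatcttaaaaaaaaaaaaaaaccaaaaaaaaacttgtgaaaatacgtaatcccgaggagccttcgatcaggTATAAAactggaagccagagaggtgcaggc
Tnf: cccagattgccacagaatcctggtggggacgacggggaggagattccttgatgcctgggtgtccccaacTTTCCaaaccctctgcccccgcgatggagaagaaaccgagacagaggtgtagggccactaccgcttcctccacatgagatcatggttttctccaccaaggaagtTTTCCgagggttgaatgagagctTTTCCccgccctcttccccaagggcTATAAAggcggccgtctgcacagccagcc
Fasl: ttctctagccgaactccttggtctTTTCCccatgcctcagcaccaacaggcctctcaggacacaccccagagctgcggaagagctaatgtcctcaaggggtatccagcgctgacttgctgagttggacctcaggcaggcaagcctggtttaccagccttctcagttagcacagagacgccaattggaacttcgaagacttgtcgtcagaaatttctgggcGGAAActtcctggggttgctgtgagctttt
Tnfsf10: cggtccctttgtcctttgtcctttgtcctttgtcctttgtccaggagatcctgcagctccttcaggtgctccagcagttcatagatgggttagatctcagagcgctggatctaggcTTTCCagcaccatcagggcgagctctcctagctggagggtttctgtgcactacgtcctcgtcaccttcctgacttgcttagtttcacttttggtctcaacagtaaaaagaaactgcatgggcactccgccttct
GGAAA occurred 1 time in the Ifng window, 3 times in Tnf, 2 times in Fasl and 1 time in Tnfsf10. Of all 32851 RefSeq promoters of this length, 55.6% held at least 1, 21.4% at least 2 and 6.39% at least 3. TATAAA stood 30 bases before the start in Ifng and 29 bases before it in Tnf, and did not occur in the Fasl and Tnfsf10 windows. It was found in 12.4% of all promoters. The AP-1 outline TGANTCA, found in 6.75% of promoters, did not occur in any of the 4. The STAT outline TTCNNNGAA, found in 7.02%, occurred 1 time in Ifng. A match describes letters and does not show that a factor binds. Of the 10 genes, 9 had an entry, and Tnfrsf10b had none.

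Fasl RNA was high in T and NK cells, and unlike Ifng it was spread over many of them. Joined T and NK cells of the CD45 libraries had 217 CPM in E, 175 CPM in EM1, 132 CPM in EM2, 198 CPM in EM3, 197 CPM in M and 63.0 CPM in Parental. Parental again stood below the other tumours, and its interval (48.3 to 80.8 CPM) overlapped none of theirs. Parental T and NK cells also held the fewest Gzmb+ Cd8+ cells, 8 of 841, against 561 of 1894 cells for E, 682 of 3143 for EM1, 252 of 1961 for EM2, 311 of 1796 for EM3 and 63 of 736 for M. The part of that composition in the Fasl level was not tested. The Total libraries gave T/NK cells 229 CPM in E, 171 CPM in EM1, 124 CPM in EM2, 176 CPM in EM3, 156 CPM in M and 59.4 CPM in Parental. The order of the 2 ends, E above and Parental below, was thus seen in both library types. In the CD45 libraries the top place of E was not clear of counting error. Its interval, on 837 UMIs, overlapped those of EM3 and M, on 716 and 232 UMIs.

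Within the lymphocytes, NK cells had 432 CPM of Fasl in E, 480.5 CPM in EM1, 438 CPM in EM2, 317.5 CPM in EM3, 309.9 CPM in M and 292 CPM in Parental. Gzmb+ Cd8+ cells had 387 CPM in E, 429 CPM in EM1, 366 CPM in EM2, 354 CPM in EM3 and 522 CPM in M. The 2 classes overlapped, and their log2 difference was −0.04 (SE 0.147, adjusted p = 0.9), with a sign that turned with the scaling and with the tumours included. NK cells of the finer annotation column, a larger set of 63 to 235 cells, had lower Fasl, 70.2 to 247.5 CPM, so the NK level depends on which of the authors' columns is read. Lef1+ Cd8+ cells had 227 to 340 CPM and fell below Gzmb+ Cd8+ cells in 5 of 5 tumours (0.49 on the log2 scale for Gzmb+ over Lef1+, SE 0.136, adjusted p = 0.0197), a call lost with DESeq2 (adjusted p = 0.077) and without the EM1 library (adjusted p = 0.079). Cd44+ Cd4+ cells had 107 to 196 CPM, lower than Gzmb+ Cd8+ cells by a log2 difference of −1.47 (SE 0.121, adjusted p = 2.54e-07, lower in 5 of 5). In the comparison of Cd44+ Cd4+ with Gzmb+ Cd8+ cells, 3 of the 10 genes were called higher and 4 lower, of 9 tested, against 15% and 11.5% of 7255 genes, and summed scaling moved the share of calls that were higher from 56.7% to 45.3%. The 3 higher genes were Tnf, Ifngr2 and Fas, and the 4 lower were Fasl, Tnfsf10, Tnfrsf1a and Tnfrsf1b. The Fas call was lost with DESeq2 (adjusted p = 0.0612), with edgeR without the tumour block (adjusted p = 0.0536) and without the E library (adjusted p = 0.0726). That of Tnfsf10 was lost with DESeq2 (adjusted p = 0.0659) and with edgeR without EM3 (adjusted p = 0.09).

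A Fasl UMI was seen in a median of 49.2% of Gzmb+ Cd8+ cells and 40.0% of NK cells, against 1.06% of B cells. After thinning to 1000 UMIs these shares were 32.0%, 31.8% and 0.621%, with 369, 143 and 857 shallower cells left out. Granulocytes had a low Fasl level of 11.0 to 18.5 CPM in the 6 CD45 libraries, which overlapped the 4.03 to 17.2 CPM of B cells, of similar depth, while the deeper macrophages had 0.597 to 1.97 CPM. The granulocyte level was higher than that of macrophages in 6 of 6 tumours, by 4.61 on the log2 scale with TMM factors and 3.81 with summed UMIs (adjusted p = 1.07e-08 and 2.5e-08). After thinning, a median of 0.911% of granulocytes (0.362% to 1.32%) and 0.0993% of macrophages had a Fasl UMI, with 7014 granulocytes and 124 macrophages left out. The granulocyte share overlapped that of B cells (0% to 1.22%), so it is not read as expression. Tumour cells had 6.62 CPM in E and 1.41 to 2.23 CPM in the other 5 tumours.

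Tnf was highest per RNA in granulocytes and macrophages. Granulocytes of the CD45 libraries had 194 CPM in E, 118 CPM in EM1, 109 CPM in EM2, 60.2 CPM in EM3, 337 CPM in M and 121 CPM in Parental. Macrophages had 59.5, 94.5, 73.5, 44.6, 74.2 and 46.2 CPM in the same order. The M granulocytes were highest and the EM3 granulocytes lowest, and in each tumour granulocytes were above macrophages. The difference was 1.96 on the log2 scale (SE 0.214, adjusted p = 9.64e-07) with TMM factors and 1.13 with summed UMIs (adjusted p = 0.00016). In the comparison of granulocytes with macrophages, 8 of the 10 genes were called higher in granulocytes and 0 lower, of 9 tested by edgeR, against 35.2% and 42.2% of 10725 genes. At an unadjusted p under 0.05 edgeR also had 0 lower, and DESeq2 called 8 higher and 0 lower. With summed UMIs the median of all genes moved by −0.82, the share of calls that were higher fell from 45.5% to 22.1%, and 2 of the 10 genes were called lower, Ifngr1 and Ifngr2. Macrophages and other myeloid cells held a median of 81.6% of all Tnf UMIs of a CD45 library (49.2% to 89.5%) and granulocytes 12.1% (4.97% to 45.2%). In the Total libraries, which hold the tumour cells, macrophages and other myeloid cells held 47.9% to 83.3% and tumour cells 3.27% to 35.4%, most in Parental and 19.9% in EM2, at tumour cell levels of 1.98 to 13.0 CPM.

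T and NK cells had 26.9 CPM of Tnf in E, 28.1 CPM in EM1, 20.8 CPM in EM2, 40.8 CPM in EM3, 110.1 CPM in M and 29.5 CPM in Parental. In the M CD45 library 1 Cd44+ Cd4+ cell held 79 of the 130 UMIs, and 37 Ifng UMIs as well, and without it M had 43.2 CPM. The T/NK class of the Total libraries also had its highest Tnf in M, 108.8 CPM on 242 UMIs and 89.4 CPM without its top cell, against 20.3 to 36.9 CPM in the other tumours. T and NK cells were below macrophages by a log2 difference of −1.37 (SE 0.321, adjusted p = 0.0031, lower in 5 of 6 tumours). Cd44+ Cd4+ cells had more Tnf than Gzmb+ Cd8+ cells in 5 of 5 tumours, by 1.06 on the log2 scale (SE 0.289, adjusted p = 0.0127). Without the top cell of each sum that difference was 0.75 (adjusted p = 0.0584) and no longer passed.

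Tnfsf10 was the ligand that lymphocytes, endothelial cells and tumour cells shared. T and NK cells of the CD45 libraries had 54.9 CPM in E, 43.7 CPM in EM1, 35.4 CPM in EM2, 61.2 CPM in EM3, 52.5 CPM in M and 14.2 CPM in Parental. Gzmb+ Cd8+ cells had 83.8, 78.6, 47.4, 124.9 and 66.4 CPM in the first 5 of these tumours. They stood above NK cells in 5 of 5 (0.82 on the log2 scale, SE 0.269, adjusted p = 0.0339), a call that DESeq2 and the edgeR fit without the tumour block did not make (adjusted p = 0.223 and 0.053), nor edgeR without the EM1 or the EM3 library (adjusted p = 0.146 and 0.121). It was also not made with at least 650 genes a cell, with sums of at least 5 cells or without the top cells. Endothelial cells had 81.6 CPM in E, 50.4 CPM in EM1, 39.1 CPM in EM2, 15.8 CPM in EM3, 55.9 CPM in M and 24.6 CPM in Parental, on 37 to 147 cells and 4 to 42 UMIs. These values were above those of tumour cells in 6 of 6 tumours, but by little in EM2 (39.1 and 37.7 CPM) and on 4 UMIs in EM3. The difference was not tested. Tumour cells had 12.1 CPM in E, 14.7 CPM in EM1, 37.7 CPM in EM2, 8.56 CPM in EM3, 12.5 CPM in M and 11.7 CPM in Parental. EM2 stood out above the rest: 29.3% of its 3289 tumour cells had a Tnfsf10 UMI, against 6.09% to 11.1% elsewhere. Tumour cells were above macrophages, which had 2.16 to 4.27 CPM, by 1.92 on the log2 scale (SE 0.234, adjusted p = 4.01e-05, higher in 6 of 6). They were below T/NK cells of the same libraries by a log2 difference of −1.60 (SE 0.361, adjusted p = 0.00328, lower in 6 of 6). Tumour cells held a median of 76.0% of all Tnfsf10 UMIs of a Total library. The share was 10.8% in E, where they were 7.26% of the cells, and 88.5% in EM2, where they were 33.8%. In Parental it was 88.0%, with tumour cells 55.4% of the cells. Tumour cells of the Total libraries were deeper than T/NK cells, at median depths of 6466 to 15194 against 1099 to 2088 UMIs. Their share of the RNA was therefore not their share of the cells. A Tnfsf10 share above the share of cells does not show a higher level per RNA.

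Cells with at least 10 UMIs of a ligand were counted. A fixed number is a larger share of the RNA of a shallow cell, and median depths were 1036 to 2211 UMIs in Gzmb+ Cd8+ and NK cells, 5076 to 7609 in macrophages and 6466 to 15194 in tumour cells, so the 4 counts are not compared with each other. For Fasl there was none among 113012 cells. For Ifng there were 11 such cells in the CD45 libraries, 6 T cells, 3 NK cells and 2 of the class the authors named T/Myeloid Hybrid, and 7 in the Total libraries, all T/NK cells. Those 11 cells held 33.6% of the Ifng UMIs of the CD45 library of E, 58.4% for EM1, 15.2% for EM2, 36.3% for EM3 and 62.1% for M, and Parental had no such cell. The 7 cells of the Total libraries held 15.2% for E, 18.9% for EM1, 29.9% for EM2 and 25.6% for EM3, and M and Parental had none there. The share thus differed between the 2 libraries of a tumour, most for M. For Tnf there were 177 such cells in the CD45 libraries, 129 of them macrophages and 30 granulocytes, and they held 19.0% to 42.1% of its UMIs. The fullest was a T/Myeloid Hybrid cell of E with 303 Tnf UMIs. For Tnfsf10 there were 10 such cells, all tumour cells of the Total libraries, with at most 4.03% of its UMIs. Whether these cells differ from others in ways other than these genes was not tested.

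**Figure D2:**
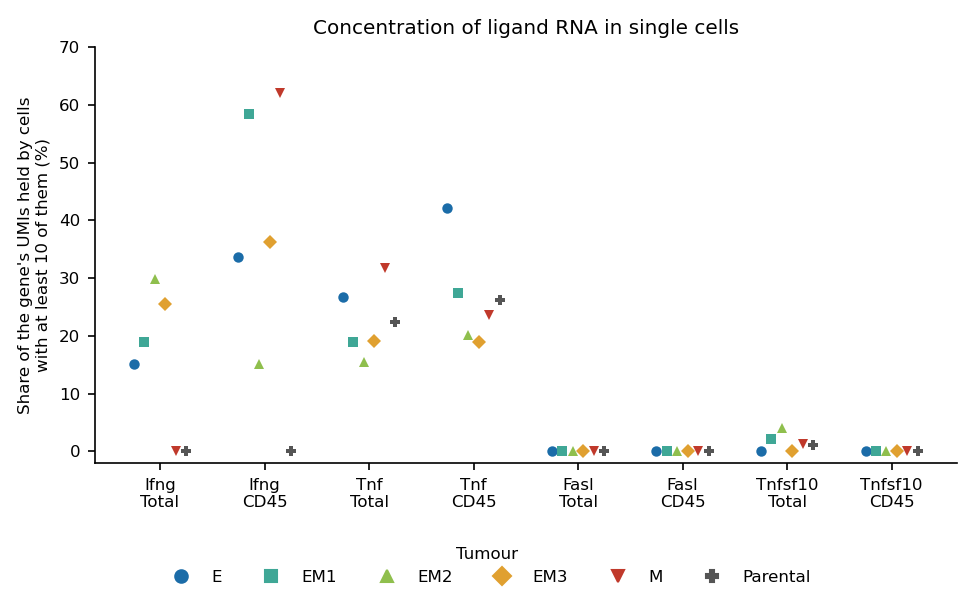
Share of each ligand's UMIs (percent) held by cells with at least 10 UMIs of it, per library and tumour. Ifng reaches 62.1% and Tnf 42.1% in CD45 libraries, Fasl is at 0% in all 12 libraries, and Tnfsf10 does not pass 4.03%.

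The receptors for interferon gamma had unlike class patterns. Ifngr1 was highest in T/NK cells, with a median over the 6 Total libraries of 2107 CPM (1461 to 2256), then dendritic cells with 688 CPM (467 to 879), ranges that did not overlap. Macrophages and B cells followed at 295 and 289 CPM, with overlapping ranges. Tumour cells came last of 8 classes, at 85.4 CPM (75.8 to 128), below fibroblasts (108 CPM) in 5 of 6 tumours. Tumour cells were below T/NK cells by a log2 difference of −4.40 (SE 0.175, adjusted p = 3.58e-07) and below macrophages by −1.93 (SE 0.111, adjusted p = 1.69e-07), in 6 of 6 tumours each.

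Ifngr2, the signalling chain, had another order among lymphocytes. In the CD45 libraries it was highest in B cells, at a median of 291 CPM (180.2 to 511), and lowest in NK cells, at 27.5 CPM (6.49 to 46.0), which lay below T cells (46.4 to 305 CPM) in 6 of 6 tumours. NK cells had the highest Ifngr1 of those classes, 3582 CPM (2592 to 3832). Within T cells, Ifngr2 had a median of 234 CPM in Cd44- Cd4+ cells (69.1 to 459.9), 86.4 CPM in Cd44+ Cd4+ cells (68.4 to 115), 48.05 CPM in Foxp3+ regulatory cells, 44.2 CPM in Lef1+ Cd8+ cells (16.01 to 185.9), 26.6 CPM in proliferating Mki67+ cells (15.0 to 41.0) and 20.6 CPM in Gzmb+ Cd8+ cells (9.48 to 22.2). The last 3 ranges overlapped. The Gzmb+ Cd8+ level, on 1 to 20 UMIs a tumour, did not overlap that of Cd44+ Cd4+ cells, and the log2 difference of Cd44+ Cd4+ over Gzmb+ was 2.26 (SE 0.196, adjusted p = 4.71e-07, higher in 5 of 5). Ifngr1 did not pass between the same cells (0.18, SE 0.101, adjusted p = 0.224). In tumour cells Ifngr2 was 102 CPM (56.7 to 119.7), which was below macrophages by a log2 difference of −1.38 (adjusted p = 3.79e-06) and did not pass against T/NK cells (0.16, SE 0.167, adjusted p = 0.411).

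The TNF receptors were both high in granulocytes, Tnfrsf1a above every other class and Tnfrsf1b beside T and NK cells. Tnfrsf1a had a median of 418 CPM in granulocytes of the Total libraries (359.6 to 484), 293 CPM in endothelial cells, 225 CPM in macrophages, 201 CPM in fibroblasts, 169.7 CPM in dendritic cells, 103 to 188 CPM in tumour cells (mean 148), 109 CPM in T/NK cells and 69.2 CPM in B cells. Only the step from granulocytes to endothelial cells was free of overlap. Tumour cells were above T/NK cells in 6 of 6 tumours (0.50 on the log2 scale, SE 0.119, adjusted p = 0.00437) and below macrophages in 6 of 6 (−0.98, SE 0.159, adjusted p = 0.000301). Tnfrsf1b had 862 CPM in granulocytes (649 to 1248) and 853 CPM in T/NK cells (598 to 994), which exchanged places in 3 of 6 tumours. In the CD45 libraries NK cells came first at 1268 CPM (1085 to 1390), above granulocytes at 1013 CPM (873 to 1595) in 5 of 6 tumours. Tumour cells came last in the Total libraries at 78.9 CPM (59.5 to 112), below macrophages by a log2 difference of −3.01 (SE 0.133, adjusted p = 3.34e-08). Among T cells, Foxp3+ regulatory cells had the highest median of Tnfrsf1b, 1490.5 CPM (1374 to 1639).

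The death receptor genes Fas and Tnfrsf10b were higher in tumour cells than in macrophages, which were low for both. Fas had a median of 77.1 CPM in granulocytes (68.9 to 117), 46.2 CPM in tumour cells (24.9 to 86.5), 43.9 CPM in T/NK cells, 21.7 CPM in fibroblasts and 10.7 to 15.2 CPM in the other 4 classes. Tumour and T/NK cells exchanged order in 3 of 6 tumours (0.19 on the log2 scale, SE 0.146, adjusted p = 0.265). Tnfrsf10b was highest in endothelial cells, 206 CPM (160.4 to 264), then tumour cells, 97.5 CPM (86.4 to 100.4), then T/NK cells, 34.5 CPM (21.9 to 40.6), with no overlap between any of these. Macrophages came last at 6.44 CPM (4.51 to 10.6). Tumour cells were above macrophages by 1.33 on the log2 scale for Fas (SE 0.226, adjusted p = 0.000408) and 3.49 for Tnfrsf10b (SE 0.171, adjusted p = 6.37e-08), in 6 of 6 tumours each. In the CD45 libraries granulocytes were also above macrophages, by 3.52 for Fas and 3.27 for Tnfrsf10b. T and NK cells were above them by 1.14 and 2.65, each of these in 6 of 6 tumours. In NK cells of the CD45 libraries the 6 tumours together held 1 Tnfrsf10b UMI.

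**Figure D3:**
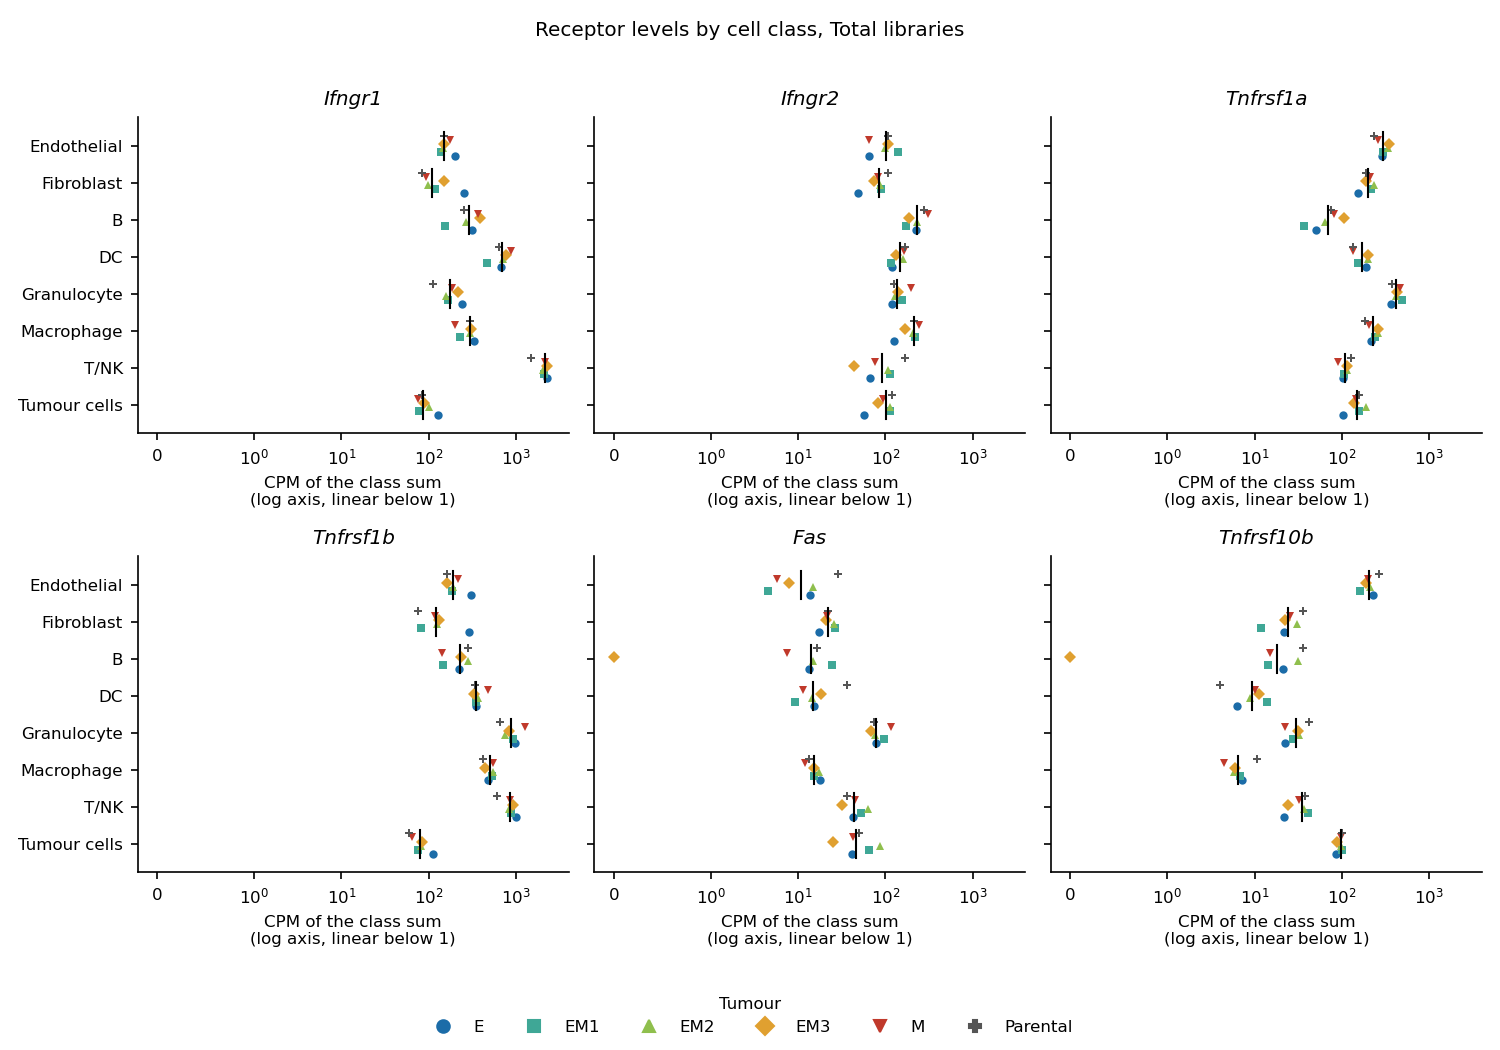
Level in CPM (log axis) of the 6 receptors in the 8 classes of the Total libraries, with 1 point per tumour. T/NK cells lead for Ifngr1, granulocytes for Tnfrsf1a and Fas, and endothelial and tumour cells for Tnfrsf10b.

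Counted over the 10 genes, tumour cells were higher than macrophages for 3 (Tnfsf10, Fas and Tnfrsf10b) and lower for 5 of 9 tested, against 37.7% and 37.8% of 13985 genes. Against T/NK cells 2 were higher (Tnfrsf1a and Tnfrsf10b) and 6 lower of 10, against 35.8% and 33.6% of 11675 genes. Against granulocytes 2 were higher (Tnfsf10 and Tnfrsf10b) and 7 lower of 9, against 40% and 31.2% of 11396 genes. Against fibroblasts 3 were higher (Tnfsf10, Fas and Tnfrsf10b) and 5 lower of 8, against 30.2% and 26.6% of 11505 genes. Tnfrsf10b was the gene called higher in tumour cells in all 4. The lower calls were a larger share of the tested members than of all genes in all 4. The higher calls were near the share of all genes against macrophages and fibroblasts, and a smaller share against T/NK cells and granulocytes. With 8 to 10 genes tested, these differences in share were not tested. Summed scaling moved the median of all genes by 0.35, −0.08, 0.82 and 0.50 in these 4 comparisons, and moved the share of calls that were higher from 50% to 62.7%, 56.2% to 78.2% and 53.2% to 76.1% against macrophages, granulocytes and fibroblasts. Against fibroblasts, Ifngr2 was called lower in tumour cells with TMM factors (−0.27, adjusted p = 0.0289) although its CPM was higher in 6 of 6 tumours, and with summed UMIs the difference was 0.23 (adjusted p = 0.0741). That call was also lost without the tumour block (adjusted p = 0.295), without the top cells (adjusted p = 0.119) and without any 1 of the EM1, EM2, EM3, M or Parental libraries (adjusted p = 0.0561 to 0.0888). The call of Tnfsf10 against granulocytes was lost without the tumour block (adjusted p = 0.0613). Tnf against fibroblasts (−1.74, adjusted p = 0.0312) was lost with summed UMIs (adjusted p = 0.0613), without the top cells (adjusted p = 0.181) and without the EM1, EM3 or M library (adjusted p = 0.0651, 0.0616 and 0.107). Against granulocytes and macrophages, Ifngr1 in CD45 granulocytes was 0.34 above macrophages with TMM factors (adjusted p = 0.0141) and 0.49 below with summed UMIs (a log2 difference of −0.49, adjusted p = 0.000831). With TMM factors the Ifngr1 call was also lost with no filter on low counts (0.11, adjusted p = 0.545), without the tumour block (adjusted p = 0.0636) and without the EM1 library (adjusted p = 0.0682). Ifngr2 also changed sign with the scaling, at 0.55 (adjusted p = 0.000102) and −0.28 (adjusted p = 0.0187), while the CPM of both was lower in granulocytes in 6 of 6 tumours.

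In tumour cells with summed UMIs, the highest of the 6 tumours was 1.16 times the lowest for Tnfrsf10b and 1.69 to 3.47 times for the other receptors. The tumour cells numbered 788 for E, 2840 for EM1, 3289 for EM2, 1948 for EM3, 4624 for M and 5842 for Parental. Tnfrsf10b, the TRAIL receptor, had 86.4 CPM in E, 100.0 CPM in EM1, 96.98 CPM in EM2, 88.8 CPM in EM3, 98.0 CPM in M and 100.4 CPM in Parental. Neighbouring intervals overlapped among Parental, EM1, M and EM2 and between EM3 and E. Scaling by TMM factors, whose factor was 1.29 for E and 0.896 to 1.03 for the others, sets E lower than here for every gene. With them the Tnfrsf10b level was 67.05 CPM in E and 93.4 to 111.6 CPM in the others, a range of 1.66-fold. Ifngr1 and Tnfrsf1b then had smaller ranges, 1.42-fold and 1.56-fold, so Tnfrsf10b was no longer the most even receptor. Tnfrsf1a, Ifngr2 and Fas had 2.58-fold, 2.84-fold and 3.63-fold. At least 1 Tnfrsf10b UMI was seen in 40.6% to 68.3% of tumour cells, at median depths of 6466 to 15194 UMIs, and in 8.28% to 9.73% after thinning to 1000 UMIs, with 98 cells left out.

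Fas was the receptor with the widest range, 3.47-fold. It had 41.6 CPM in E, 65.6 CPM in EM1, 86.5 CPM in EM2, 24.9 CPM in EM3, 42.8 CPM in M and 49.6 CPM in Parental. EM2 and EM1 were highest and EM3 lowest, and only the intervals of M and E overlapped among neighbours. EM2 was thus the tumour whose malignant cells had most of both Fas and the ligand Tnfsf10. Ifngr1 had 128 CPM in E, 77.4 CPM in EM1, 100.2 CPM in EM2, 87.0 CPM in EM3, 75.8 CPM in M and 83.7 CPM in Parental. Ifngr2 had 56.7, 112, 114, 82.8, 92.6 and 119.7 CPM in the same order. With summed UMIs E therefore had the highest Ifngr1 and the lowest Ifngr2, each with an interval apart from the next tumour's. Tnfrsf1a had 103, 155.5, 188, 137, 144.5 and 158 CPM from E through Parental, with EM2 highest and E lowest. Tnfrsf1b had 112, 75.8, 82.0, 82.8, 64.6 and 59.5 CPM, with E highest and Parental lowest. E was thus at an end of the order for 5 of the 6 receptors, all but Fas. Tumour cells of E also held more RNA of some leukocyte genes, as given below. The part of that RNA in the Ifngr1 and Tnfrsf1b levels was not tested, and the intervals do not cover it. With TMM factors EM2 was highest for Ifngr1 (110.3 CPM, and 99.6 CPM in E) and for Tnfrsf1b (90.3 CPM, and 86.7 CPM in E), so the top place of E was lost for both, while E was still lowest for Ifngr2, Tnfrsf1a and Tnfrsf10b.

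**Figure D4:**
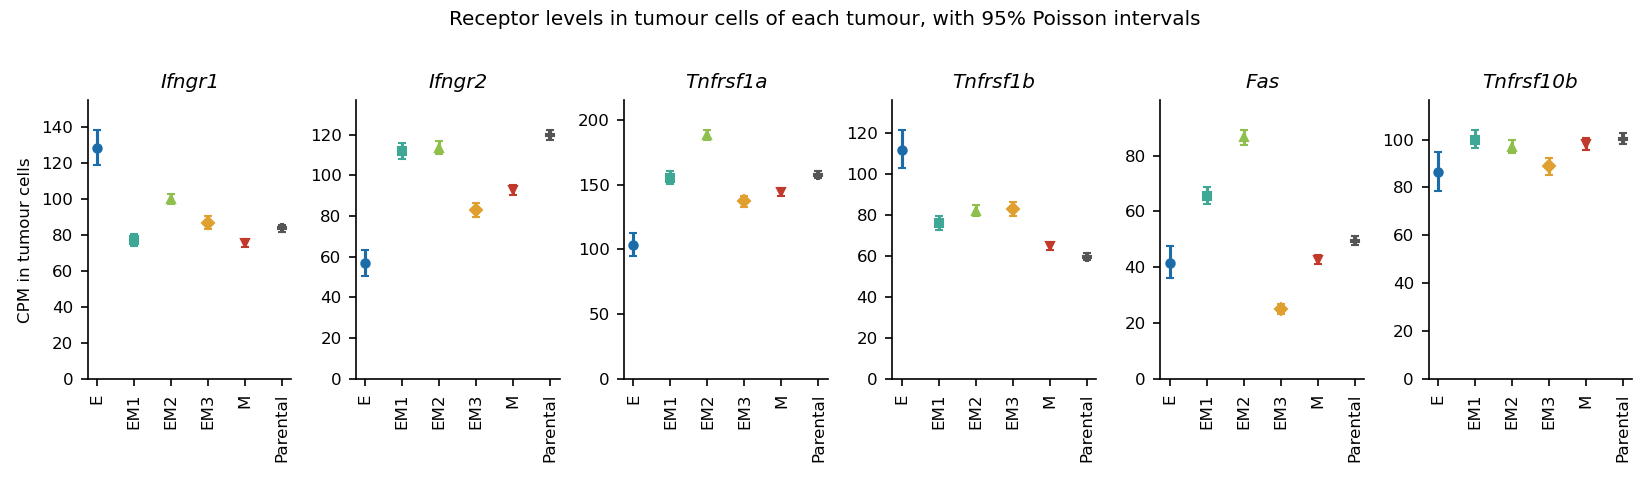
Level in CPM of the 6 receptors in the tumour cells of each tumour, with exact Poisson 95% intervals as bars. Tnfrsf10b lies between 86.4 and 100.4 CPM in all 6 tumours, and Fas ranges from 24.9 in EM3 to 86.5 in EM2.

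Tumour cells of the M and EM3 clones were each set against those of the E clone, and the libraries of E and EM3 are among those that shared first barcode parts. Log2 ratios here are of CPM + 1. For M over E they were −0.75 for Ifngr1 (−0.87 to −0.63), 0.70 for Ifngr2 (0.53 to 0.87), 0.48 for Tnfrsf1a (0.36 to 0.60), −0.78 for Tnfrsf1b (−0.91 to −0.66), 0.04 for Fas (−0.16 to 0.24) and 0.18 for Tnfrsf10b (0.04 to 0.32). None of the 6 receptors reached 2-fold, against 8.4% of 10867 genes that were at least 2-fold higher in M and 15.6% that were at least 2-fold lower. For EM3 over E they were −0.55, 0.54, 0.41, −0.43, −0.72 and 0.04 in the same order. Again none reached 2-fold, against 4.77% and 16% of 10778 genes. TMM factors add up to 0.40 to each M over E value and up to 0.44 to each EM3 over E value. With them Ifngr2 reached 1.09 for M over E, past 2-fold, and Tnfrsf1b for EM3 over E turned from −0.43 to 0.01. Of the ligands, Tnf was lower in M than E tumour cells (13.0 CPM in E, 3.44 CPM in M, a log2 ratio of −1.66, −2.01 to −1.29) and so was Fasl (6.62 and 2.23 CPM, −1.24, −1.69 to −0.77). At these low levels the ratios depend on the constant added: with CPM + 10 they were −0.78 for Tnf and −0.44 for Fasl, both under 2-fold, and with TMM factors −1.30 and −0.91. E tumour cells also had more RNA of some leukocyte genes: Ptprc, which encodes CD45, had 26.5 CPM there and 4.11 to 5.50 CPM in the others. The 8 T cell genes summed to 75.8 CPM against 10.2 to 28.7 CPM, 6 macrophage genes to 429 CPM against 72.4 to 307 CPM, and 5 granulocyte genes to 1292 CPM against 144 to 582 CPM. None of the genes of these 3 lists was at 0 in any of the 6 tumours. Endothelial genes, 4 in the list, summed to 29.5 CPM in E and 5.26 to 17.5 CPM in the others. Mast cell genes, also 4, summed to 10.8 CPM in E and 0.564 to 6.05 CPM in the others. Not highest in E were 5 NK genes, with 10.4 CPM in E and 5.39 to 15.0 CPM in the others, and 2 of them at 0 in E. Of these NK sums, Eomes alone gave 7.18 CPM in E and 4.52 to 14.4 CPM in the others. Nor were 4 B cell genes (29.7 CPM in E, 34.7 CPM in M) and 5 fibroblast genes (230 CPM in E, 335 CPM in M). In tumour cells with no Ptprc UMI, M over E was −1.60 for Tnf, −1.01 for Fasl, −0.55 for Ifngr1 and −0.62 for Tnfrsf1b. EM3 over E was −2.09, −1.12, −0.38 and −0.27 in the same order in those cells. At so low a Ptprc level, a cell with leukocyte RNA can hold no Ptprc UMI. These ratios therefore do not show what remains without such RNA.

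Genes that act with these ligands and receptors were given by 6 lists, counted in tumour cells at 5 CPM or more in M or E. The higher RNA of some leukocyte genes in E tumour cells, given above, applies to all 6 lists. Its part in the ratios was not tested. Of 20 interferon gamma signalling and response genes, 0 were at least 2-fold higher in M and 7 at least 2-fold lower, with a median log2 ratio of −0.48 against 0.0 for all genes, of which 15.6% were at least 2-fold lower. Ciita, the switch for MHC class II genes, had 14.9 CPM in E and 1.52 CPM in M (−2.66). Ido1, which degrades tryptophan, had 10.8 CPM in E, 1.40 CPM in M and 1.63 to 4.38 CPM elsewhere (−2.30 for M over E). Cd274, encoding PD-L1, had 58.6 CPM in E, 16.3 CPM in M and 6.02 to 16.9 CPM elsewhere (−1.79 for M over E). Iigp1, an interferon-induced GTPase, had 27.0 CPM in E, 62.2 CPM in EM1, 22.9 CPM in EM2, 16.2 CPM in EM3, 7.97 CPM in M and 2.91 CPM in Parental (−1.64). With TMM factors, which moved the median of all genes by 0.38, 3 of the 20 were higher and 4 lower, against 19.8% and 10.4% of all genes. The 4 genes named here were lowest in M or Parental. Others of the list were not: Irf8 and Jak2, a transcription factor and a kinase of the pathway, were lowest in EM3 (19.5 and 112.5 CPM), and Socs1, a feedback inhibitor, had 220.2 CPM in M and 136.8 CPM in E. These 3 were chosen after their values were seen. For EM3 over E the list had 0 higher and 5 lower, against 4.77% and 16% of all genes, and with TMM factors 0 and 4, against 14.4% and 10.6%.

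Of 20 genes of death receptor signalling, 0 were at least 2-fold higher in M and 4 at least 2-fold lower, a share near the 15.6% of all genes. The median was −0.23, against 0.0 for all genes. With TMM factors it was 0.15, against 0.38 for all genes. There 1 gene was higher and 1 lower, against 19.8% and 10.4% of all genes. Among the 4 genes lower with summed UMIs were Tradd, an adaptor of TNFR1 (46.3 and 18.6 CPM, −1.27), and the necroptosis genes Ripk3 (7.94 and 1.21 CPM, −2.02) and Mlkl (47.8 and 18.3 CPM, −1.34). Ripk3 was low in every tumour but E, at 0.752 to 2.09 CPM. Fadd and Casp8, which pass the signal of FAS and the TRAIL receptor, had 21.4 and 51.4 CPM in E and 18.8 and 33.8 CPM in M. For EM3 over E the list had 0 higher and 3 lower, again near the 16% of all genes. With TMM factors it had 1 and 1, against 14.4% and 10.6% of all genes. Of 11 measured decoy and other TNF receptors, 1 was at least 2-fold higher in M and 5 lower (median −0.76), against 8.4% and 15.6% of all genes. With TMM factors the counts were 1 and 2, against 19.8% and 10.4% of all genes. The higher gene was Tnfrsf11b, which encodes osteoprotegerin, a secreted receptor that can bind TRAIL. It had 5.10 CPM in E, 18.3 CPM in EM1, 6.86 CPM in EM2, 22.7 CPM in EM3, 45.5 CPM in M and 8.29 CPM in Parental, a log2 ratio of 2.93 for M over E. The mouse decoy TRAIL receptor gene Tnfrsf23 went from 30.8 CPM in E to 11.3 CPM in M (−1.37), and Tnfrsf9, the costimulatory receptor 4-1BB, from 42.7 to 11.3 CPM (−1.83). Tnfrsf9 had 6.76 to 16.7 CPM in every tumour but E. For EM3 over E this list had 1 higher and 5 lower, against 4.77% and 16% of all genes. With TMM factors it had 1 and 2, against 14.4% and 10.6% of all genes.

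The other 3 lists were small or low. Of 10 regulators of effector cytokines, 7 were at least 2-fold lower in M and 0 higher (median −1.29), against 15.6% and 8.4% of all genes. With TMM factors 4 were lower and 0 higher, against 10.4% and 19.8% of all genes. They included the interleukin 12 receptor gene Il12rb1 (58.2 and 4.35 CPM, −3.47) and the interleukin 18 receptor genes Il18r1 (14.6 and 0.800 CPM, −3.11) and Il18rap (31.8 and 2.42 CPM, −3.26). Their levels in the other tumours were unlike. Il12rb1 had 43.06 CPM in EM1, 28.79 CPM in EM2, 11.79 CPM in EM3 and 7.007 CPM in Parental. Il18rap had 14.65, 23.79, 10.96 and 22.88 CPM in the same order, and Il18r1 had 0.9393, 0.9879, 1.148 and 1.025 CPM. Of 5 other TNF family ligands above 5 CPM, 3 were lower and 0 higher (median −1.24), against the same shares of all genes. With TMM factors 2 were lower and 0 higher. Lta had 6.43 CPM in E and 1.145 CPM in M. Of 6 TNF processing genes 0 passed 2-fold for M over E, against those shares of all genes. Adam17, which cleaves TNF from the cell surface, had 200.5 CPM in E and 145 CPM in M. For EM3 over E, 7 of 10 regulators, 2 of 5 ligands and 1 of 6 processing genes were lower and 0 higher. All genes had 16% lower and 4.77% higher there. With TMM factors 7, 2 and 0 were lower, against 10.6% of all genes. Several of these genes are leukocyte genes, and the Ptprc level of the E tumour cells given above applies to them too. Ptprc had 4.884 CPM in EM1, 4.113 CPM in EM2 and 4.559 CPM in Parental, where Il18rap was well above its M level. The part of leukocyte RNA in these levels was not tested.

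Ligand in T and NK cells was set against receptor in tumour cells over the 6 tumours in 7 relations, each with an exact permutation test. The smallest p this test can give is 0.00139 for r, and it is larger for rho. None passed. Tnfsf10 against Tnfrsf10b had r = −0.696 (exact p = 0.118, adjusted p = 0.665) and rho = −0.771 (exact p = 0.103, adjusted p = 0.36), and r = −0.559 without the Parental and EM3 tumours. Fasl against Fas had r = −0.405 (exact p = 0.424, adjusted p = 0.665) and rho = −0.771 (exact p = 0.103, adjusted p = 0.36), and r = −0.625 without Parental and EM2. Ifng had r = 0.0146 with Ifngr1 (exact p = 0.976, rho −0.143) and −0.354 with Ifngr2 (exact p = 0.475, rho −0.600). Tnf had r = −0.134 with Tnfrsf1a (exact p = 0.667, rho −0.314) and −0.406 with Tnfrsf1b (exact p = 0.376, rho −0.429). Ifng against the mean level of the interferon gamma response list in tumour cells had r = 0.613 (exact p = 0.193, adjusted p = 0.665) and rho = 0.600 (exact p = 0.242), and r = −0.245 without EM1 and Parental, so the positive value rested on those tumours. Libraries that shared first barcode parts came from at most 2 tumours, too few for a value within such a set. With the T/NK cells of the Total libraries in place of those of the CD45 libraries, Tnfsf10 against Tnfrsf10b had r = −0.820 (exact p = 0.0292, adjusted p = 0.204).

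**Figure D5:**
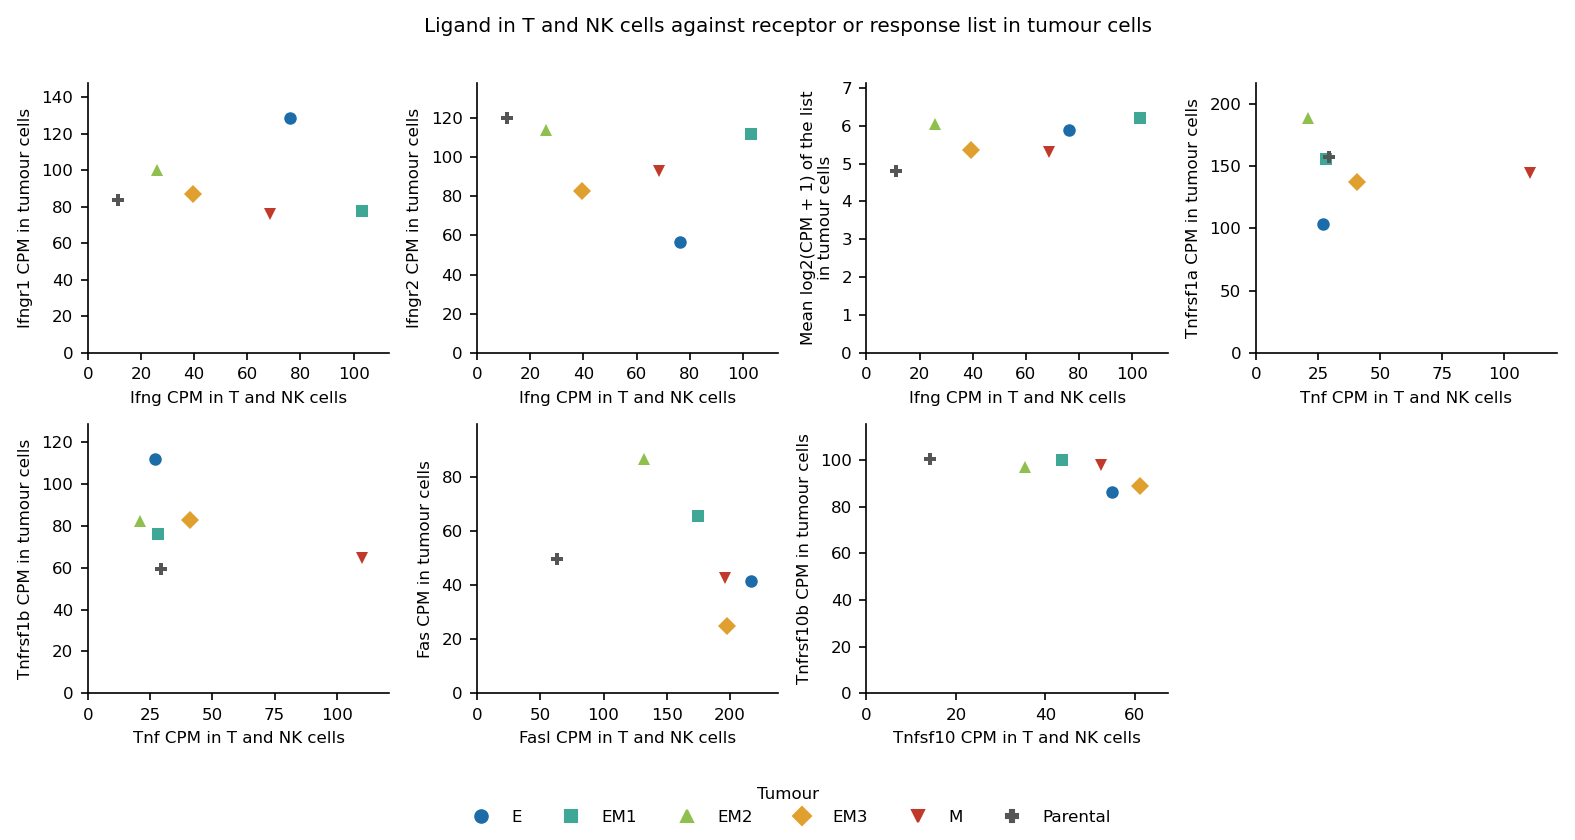
Ligand level in T and NK cells of the CD45 library against receptor level in tumour cells of the Total library, both in CPM, with 1 labelled point per tumour. No panel shows a relation past its test, and Parental lies at the low end of the Ifng, Fasl and Tnfsf10 axes.

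The genes whose levels ran most like those of the 10 were named by Pearson's r of log2(CPM + 1) over class sums, 69 sums of the CD45 libraries for the ligands and 48 of the Total libraries for the receptors. Sums of a library share its depth and cells, so these values are descriptions. Ifng was most like Fasl (0.826), Sytl3 (0.806) and Zdhhc15 (0.788). Fasl was most like Tbx21, the transcription factor T-bet (0.912), the NK receptor gene Klrc1 (0.897) and Rgs3 (0.893). Tnfsf10 was most like Xlr4c (0.888), Sytl3 (0.879) and Il2rb, the shared interleukin 2 and 15 receptor chain (0.877). Tnf had weaker neighbours, Snap23 (0.709), Hgsnat (0.703) and the chemokine gene Ccl4 (0.686). Ifngr1 was most like Gna13 (0.911), Il12rb2 and Stat3 (both 0.900), and Tnfrsf1b like Ostf1 (0.918), Myo1f (0.915) and Rinl (0.914). Tnfrsf10b was most like Sema3f (0.925), Ephb4 (0.894) and Bok (0.892), Fas like Isg20 (0.827), Il18rap (0.771) and Zfp523 (0.761), Tnfrsf1a like Cdc42ep2 (0.840), Ndel1 (0.838) and Marcksl1 (0.822), and Ifngr2 like Stx7 (0.755), Acsl1 (0.743) and Fam174a (0.720).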

How the data were processed

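The authors deposited, per the file headers, a count table of UMIs per gene and cell for each of the 12 libraries and a table of cell annotations. The annotation tables deposited by the authors also hold the mitochondrial percent and the same fraction of each cell, which were used here only to check the files. Cell Ranger and mm10 are named per the submitters' processing notes. The cell filters and the annotation method are not given in the sources used here, and the labels name both a fixed-RNA and a 3′ kit. Scrublet (scanpy 1.11.5, simulated ratio 2, expected rate 6%, 2000 variable genes, 30 components) marked 1.43% to 2.86% of cells per library as doublets, and these were left out. Counts were summed per library and class. Classes were compared with edgeR 4.0.16 (limma 3.58.1, R 4.3.3), TMM factors and the tumour as a block, for sums of at least 20 cells, with calls at an adjusted p of 0.05. The tumour pairs the classes because both come from the same library. Counts were simulated for tumour cells against macrophages (13816 genes). On the log2 scale, 80.8% of changes of 1 and 100% of changes of 2 were recovered, with 4 false calls. The simulation gave all genes the same dispersion, no tumour effect and few changed genes. These figures therefore do not carry over to genes whose UMIs sit in few cells. DESeq2 1.42.0, summed scaling, other filters, thinning to 500 UMIs and leaving out each tumour were alternatives, and leaving out the cell with most UMIs and TMM factors for the gene lists were chosen after seeing the data. The median depth was 1557 to 10042 UMIs a cell. The members and lists were chosen with earlier results of these data known. Genes named are the 10 members, up to 4 genes per list with the largest M over E ratio in tumour cells at 5 CPM or more, and the 3 most similar genes per member. Fadd, Casp8, Irf8, Jak2 and Socs1 fall outside that rule and were chosen after their values were seen. The values of 1 gene that the rule names are not reported here.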

Additional observations from a re-analysis of the deposited data

Results flagged for a closer look

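In 76 sets of 5 or 6 tumours, the value farthest from the others was checked for its gap to the next, and 3 stood apart. Chance gives about 1 in 20, so 3 of 76 sets is no more than chance would give. The sets also share genes and tumours. Tnfsf10 in tumour cells over macrophages was 3.08 on the log2 scale in EM2, with 37.7 and 3.57 CPM, and 1.57 to 1.89 in the other tumours. Tnfrsf10b in tumour cells over fibroblasts was 2.99 in EM1, with 100.0 and 11.7 CPM, and 1.45 to 1.96 in the others. Tnf in Cd44+ Cd4+ over Gzmb+ Cd8+ cells was 4.52 in M, with 240.2 and 9.48 CPM, and 0.43 to 1.11 in the others, where 79 of the 104 UMIs of the M Cd44+ Cd4+ cells sat in 1 cell and the M Gzmb+ Cd8+ level rested on 1 UMI.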

How the results depend on the processing

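Of 1993 values under alternatives, 1800 kept their direction and side of the threshold, or stayed within the spread, 128 moved, 39 lost a call, 4 gained one and 22 changed sign. The causes were not tested. In the fit with no replicate block, which drops the tumour pairing, members called higher in tumour cells over granulocytes were 1, those higher in Gzmb+ Cd8+ over NK cells were 0, and Tnfrsf1a in Gzmb+ over Lef1+ cells was 0 on the log2 scale. Tumour cells over granulocytes had 6856 genes higher and 6498 lower with no filter, and 7474 and 2081 with summed scaling. Tumour cells over fibroblasts had 5866 higher with no filter and 6484 with summed scaling, and members called lower were 3 with summed scaling, 3 without the top cells and 3 to 5 leaving out 1 tumour. Tumour over T/NK cells had 4 members higher with no filter. Gzmb+ over NK cells had 240 genes higher and 347 lower and 0 members higher with DESeq2, 834 genes higher with no filter, and 0 members higher with at least 650 genes a cell, with sums of 5 cells and without top cells (0 to 1 leaving out 1 tumour). Gzmb+ over Lef1+ cells had 253 and 325 genes and 1 member higher with DESeq2, and 713 genes higher and 2 members lower with no filter. Leaving out 1 tumour gave 323 to 669 genes lower, 1 to 3 members higher and 1 to 2 lower. Cd44+ Cd4+ over Gzmb+ cells had 681 and 421 genes with DESeq2, 5 members higher with no filter and 543 to 940 genes lower leaving out 1 tumour. With summed scaling T and NK cells over macrophages had 6542 and 2712 genes, and granulocytes over macrophages 2017 and 7098, with 2 members lower.

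Sign changes of single genes were these. Fasl in tumour cells over macrophages was 0.04 with no filter, 0.20 with summed scaling and −0.36 to 0.03 leaving out 1 tumour (0.03 without EM1). Ifngr2 over T/NK cells was −0.02 to 0.27 leaving out 1 tumour (lowest without EM3), and over fibroblasts 0.12 with no filter and 0.23 with summed scaling. Fasl in Gzmb+ over NK cells was 0.03 with summed scaling and without top cells, and −0.16 to 0.04 leaving out 1 tumour (0.03 to 0.04 without E, EM1 or EM2). Tnfrsf1a in Gzmb+ over Lef1+ cells was −0.05 with DESeq2, −0.01 with sums of 5 cells and −0.25 (without EM3) to 0.19 leaving out 1 tumour. Ifng in Cd44+ Cd4+ over Gzmb+ cells was −0.10 with DESeq2, −0.80 without top cells and −0.28 (without EM1) to 1.02 leaving out 1 tumour. With summed scaling Tnfsf10, Ifngr1 and Ifngr2 in granulocytes over macrophages were −0.13, −0.49 and −0.28. Ifng against Ifngr1 had r = −0.0887 with all CD45 cells.

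At 50 CPM or more, 9.53% of genes were at least 2-fold lower for M over E and 8.28% for EM3 over E. With TMM factors 1 receptor was at least 2-fold higher for M over E. In T and NK cells 1 ligand had intervals of M and E that did not overlap, 3 in the Total libraries and 2 without top cells. In Total libraries T/NK cells held a median of 12.4% of Tnfsf10 UMIs and macrophages with other myeloid cells 64.2% of Tnf UMIs. Thinned to 500 UMIs, median shares of cells with a UMI were 3.42% for Ifng and 19.0% for Fasl in Gzmb+ cells, 2.79% for Tnf in macrophages, and 2.33% for Fas and 4.53% for Tnfrsf10b in tumour cells. Depth limits several values: Parental T and NK cells held 11 Ifng UMIs, all NK cells 1 Tnfrsf10b UMI, and 1 tumour's Gzmb+ Cd8+ cells 1 Ifngr2 UMI.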
